A study of Mus musculus with 8 samples.

Results

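The immunoglobulin heavy chain locus Igh was taken as the rows of the deposited site table that lie on chromosome 12 between 113258768 and 116009954 of mouse build GRCm38, the span that RefSeq gives for Igh. Of the 8492 listed sites, 559 (6.58%) met that rule. The study measured cytosine methylation by bisulfite sequencing of poly(A) RNA from bone marrow derived mast cells of C57BL/6 mice. Marrow cells were cultured for weeks with IL-3 and SCF, and the mast cells carried FcεRI and c-Kit on their surface. By the labels, wild type and Tet2-/- cells gave 4 libraries each, with 2 biological replicates of 2 technical replicates in each genotype. They do not say from which mice the biological replicates came, nor in which cells Tet2 was lost. Only Tet2-/- levels were analysed here, at positions that the deposited table calls specific to that group, and nothing below compares the genotypes. Igh itself was selected on its number of listed sites and their levels in these 4 libraries, so its levels are given as descriptions with no test.

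Igh encodes the heavy chains of antibodies. Its variable (V), diversity (D) and joining (J) segments are cut and joined in developing B cells by the RAG recombinase, and the joined exon is then spliced to a constant (C) region. Mast cells do not make antibody, and their heavy chain locus is normally left unrearranged, although V segments and the DNA between them can be transcribed before joining in B cell progenitors. The Ighv1 segments form the largest V family of the mouse. TET2 is a dioxygenase that oxidises 5-methylcytosine. Bisulfite converts cytosine that carries no modification to uracil. A level is the share of reads in which a position is still read as cytosine, which includes any unmodified cytosine that escaped conversion.

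The listed sites of Igh lay between the antibody gene segments and not in them. RefSeq places 251 other entries in the Igh span, among them 121 V segments, 63 V pseudogenes, 10 D segments, 4 J segments and 8 C regions. None of these 251 entries held a listed site. The entries cover 7.29% of the span, so most of the locus is intergenic in this annotation. The 559 sites ran from 114752185 to 114931161, a stretch of 178977 bases (6.51% of the span) in the Ighv1 part of the locus, with 18 V segments or V pseudogenes between the first and the last site. The nearest D, J or C segment ended 1225376 bases below the first site. Distances from a site to the nearest segment ran from 414 to 8027 bases with a median of 4085 bases, and 17 sites lay within 1000 bases of one. RefSeq-based promoter windows of 7 genes lie in the locus, and 0 of them held a site. The nearest listed site outside the rule lay 27916125 bases below the span with a mean level of 22.0%, while the first and the last site inside it had mean levels of 14.6% and 15.2%. No listed site lay above Igh on chromosome 12.

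**Figure D1:**
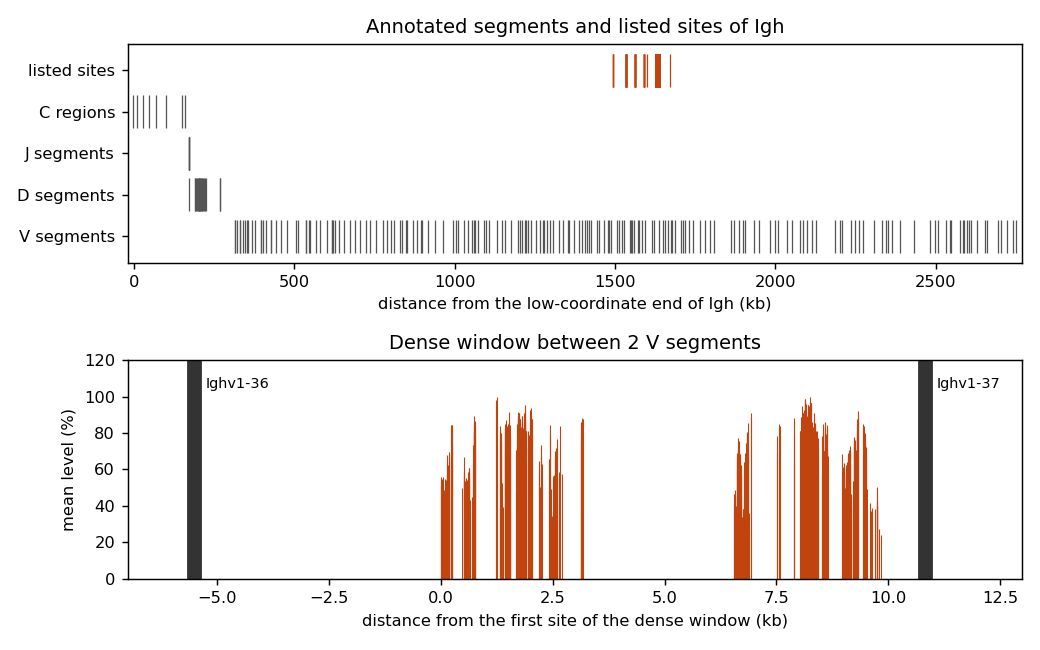
Upper panel: annotated V, D and J segments (pseudogenes included), C regions and listed sites (vertical lines) against distance in kb from the low-coordinate end of Igh. Lower panel: mean level in percent of each site of the dense window over 4 Tet2-/- libraries, against distance in kb from the first of these sites, with the flanking V segments as dark bars; all 517 sites of the window fall between Ighv1-36 and Ighv1-37.

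Most sites fell in a single gap between neighbouring V segments. Ighv1-36 ends at 114880181 and Ighv1-37 begins at 114896238, and 517 of the 559 sites (92.5%) lay between them, within 9846 bases from 114885542 to 114895387. That window is 0.358% of the Igh span. Sites up to 500 bases apart were joined into regions, of which Igh had 9. The window held 3 of them, with 235, 68 and 214 sites, and a gap of 3388 bases without a listed site lay between the first of these and the next. The other 42 sites lay in 6 small flanking regions, of which 2 were a single site. Ighv1-36 lies 5360 bases below the window and Ighv1-37 begins 850 bases above it.

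Levels in the dense window were several times those of the flanking regions. Over its 517 sites, technical replicates 1 and 2 averaged 70.7% and 66.5% for biological replicate 1, and 66.0% and 74.1% for biological replicate 2. Sets of 4 library values below keep this order. The 42 flanking sites had mean levels of 18.4%, 16.2%, 19.9% and 18.1% in the same libraries. In each of the 4 libraries the window was thus far above the flanks, with 69.3% ± 1.00 against 18.1% ± 1.17 (SD, n = 2 biological replicates for both). The highest mean of a flanking site was 29.4%, and 4 of the 517 window sites lay at or below it. Sites under 10% are not listed, so the flanking levels lie close to the lower end of the table. With the window left out, the mean level of Igh, 65.5% ± 1.02 (SD, n = 2) over all 559 sites, was that of the flanks.

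High levels were common in the window. All 4 libraries read 50% or more at 338 Igh sites (60.5%), against 33.6% of all 8492 sites, and all 338 lay in the window. All 4 read 80% or more at 65 Igh sites (11.6%), against 8.61% of all sites. A full 100% in every library was seen at 114886790 and at 114893787. The lowest window site was 114895387, the last one before Ighv1-37, with 22.2%, 28.6%, 25% and 20% in the 4 libraries. Technical replicate 1 of biological replicate 2 read 100% at 25 Igh sites, fewer than the 65, 56 and 58 sites of the other libraries, and no flanking site read 100% in any library. These shares describe the chosen sites, and with no read number their precision is unknown.

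The window broke into short stretches whose levels differed. With sites up to 100 bases apart joined, it held 13 stretches that together covered 3452 bases (35.1% of it), and 11 of them had 10 or more sites. Mean levels of these 11 ran from 55.7% to 82.7%. By these means, 4 stretches stood at 75% or more and 7 under 65%, with none in between. Single libraries did not keep to these limits. The stretch of 24 sites, with a mean of 62.5%, read 79.4% in its highest library. That of 11 sites, with a mean of 76.7%, read 67.4% in its lowest. The stretch of 62 sites from 114887222 to 114887578 stood highest, with 78.1%, 85.6%, 76.4% and 90.5% in the 4 libraries (82.7% ± 1.17, SD, n = 2). Next came the longest stretch, 100 sites from 114893576 to 114894185, with 76.8%, 80.1%, 84.0% and 86.9% (81.9% ± 4.96). These stretches differed by less than the SD of the longest one. The stretch of 29 sites nearest Ighv1-37, from 114894986 to 114895387, stood lowest with 58.5%, 50.6%, 54.5% and 59.3% (55.7% ± 1.67). All 4 libraries of the lowest stretch were below all 4 libraries of the highest ones.

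Along the window, kilobases of high and low level alternated. The first kilobase had 85 sites at 60.5% ± 3.35, the next 99 sites at 80.7% ± 2.88 and the following one 40 sites at 65.7% ± 2.38 (SD, n = 2 for each). Beyond the gap, the region of 68 sites from 114892100 to 114892470 had 58.7%, 56.9%, 58.7% and 64.0% in the 4 libraries. The ninth kilobase rose to 106 sites at 80.5% ± 5.00, and the last one held 98 sites at 60.1% ± 4.39. By their means, the bins of 99 and 106 sites thus stood above those of 85, 40, 68 and 98 sites by more than the SD of any of them. The SD of the bin of 40 sites hides a wide range, with 74.5%, 53.6%, 56.4% and 78.4% in the 4 libraries. The last of these values lay above the lowest library of either high bin, which was 75.6% in the bin of 106 sites. Within each library, the bin of 40 sites still lay below both high bins. The thinly filled bins of 11 and 10 sites, at 76.7% ± 6.84 and 77.2% ± 6.27, lay within their own SD of the high bins. Levels within a stretch were also uneven: site means in the longest stretch ran from 35.5% to 100%, and those in the region of 68 sites from 26.3% to 90.8%.

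**Figure D2:**
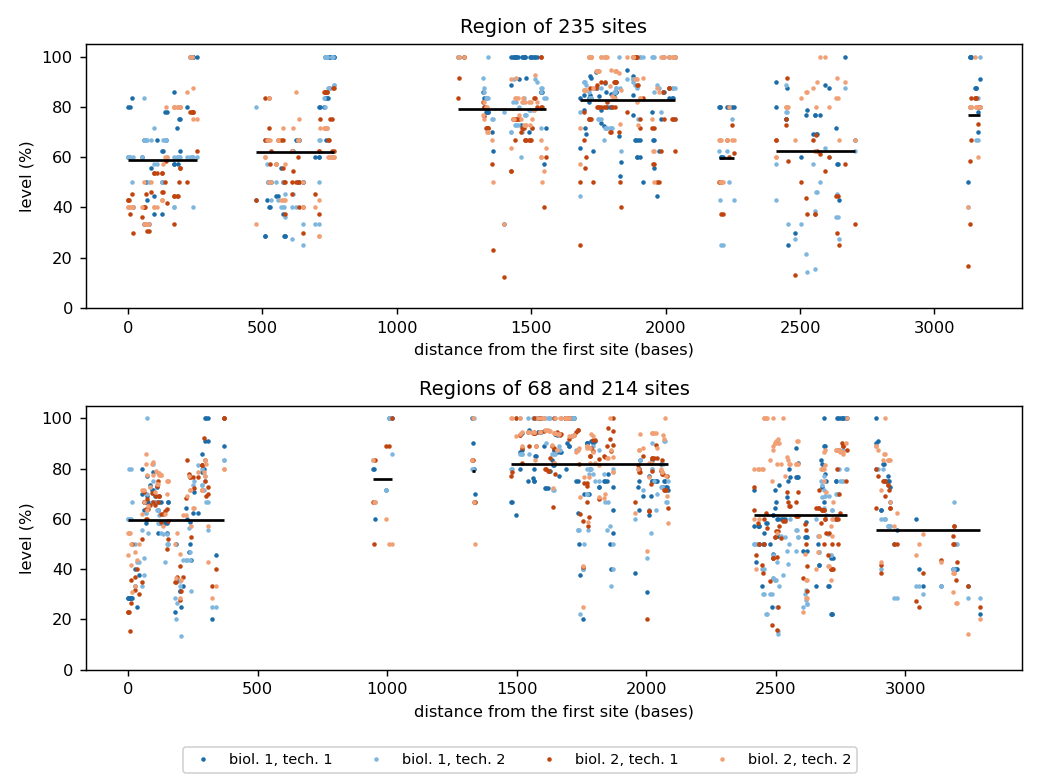
Level in percent of each site in each of the 4 Tet2-/- libraries (points, coloured by library) against distance in bases from the first site shown; black lines are the mean of each stretch. Upper panel: the region of 235 sites; lower panel: the regions of 68 and 214 sites. Stretch means rise to 82.7% in the upper and 81.9% in the lower panel, with lower stretches on either side.

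The flanking regions were short and low. The region of 16 sites from 114794241 to 114794288, between Ighv1-26 and the pseudogene Ighv1-27, stood at 16.3%, 16.3%, 14.7% and 18.3%. The region of 12 sites from 114821519 to 114821580, between the pseudogene Ighv1-30 and Ighv1-31, stood at 17.7%, 21.1%, 30.6% and 22.9%. Here both libraries of biological replicate 2 were above both of replicate 1, with a mean of 23.1% ± 5.20 (SD, n = 2). The region of 8 sites from 114850749 to 114850776 lay closest to a segment, with 413 bases between it and Ighv1-34, and stood at 24.3%, 11.3%, 14.8% and 13.3%. Technical replicate 1 of biological replicate 1 was the high library there, and also at the single site 114858375, where it read 40% against 11.8%, 15% and 14.3%. The region of 4 sites from 114752185 to 114752193, between Ighv1-22 and Ighv1-23, stood at 11.8%, 12.5%, 21.9% and 13.6%. The single site 114931161, below the pseudogene Ighv1-41, stood at 18.2%, 15.4%, 10.5% and 16.7%. The flanking regions thus overlapped one another in level, and none of them reached the window.

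**Figure D3:**
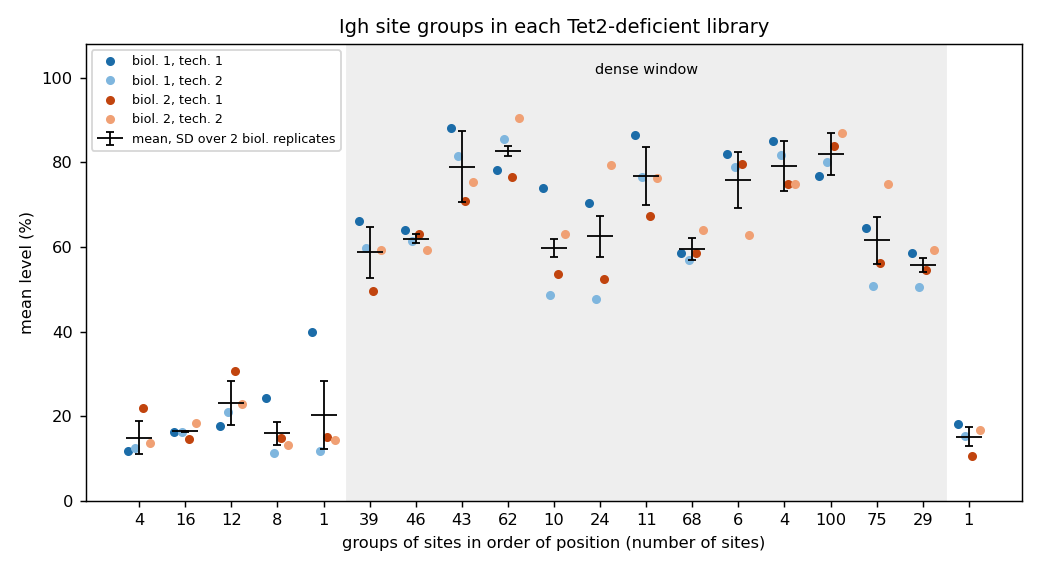
Mean level in percent of each group of Igh sites (regions outside the dense window, stretches inside it, in order of position; the number of sites is on the horizontal axis) in each of the 4 Tet2-/- libraries; coloured points are libraries, black ticks and bars the mean and SD of 2 biological replicates. Groups in the shaded window lie between 55.7% and 82.7%, and those outside it between 14.9% and 23.1%.

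Libraries differed within stretches by about as much in technical as in biological pairs. In the stretch of 24 sites from 114887951 to 114888245 the libraries stood at 70.3%, 47.8%, 52.4% and 79.4%, the widest range (31.6 points) of the 11 stretches. Each biological replicate had a high and a low library there. In the stretch of 43 sites from 114886770 to 114887096 they stood at 88.1%, 81.6%, 71.0% and 75.3%, so that replicate 1 was above replicate 2 in both libraries (79.0% ± 8.32, SD, n = 2). The values cannot settle which number of the column names is the biological replicate. Read the other way, this SD was 0.774 points, and that of the stretch with the highest mean was 7.64 in place of 1.17. In the longest stretch replicate 2 was above replicate 1 in both. The median range over the 4 libraries was 16.6 points for the 11 stretches, against 15.5 points for the 222 stretches of 10 or more sites in the whole table. The highest library was technical replicate 2 of biological replicate 2 in 6 of the 11 and technical replicate 1 of biological replicate 1 in 5.

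Biological replicates were separated at Igh sites about as often as in the whole table. At 160 Igh sites (28.6%) the libraries of replicate 1 were both above or both below those of replicate 2, against 30.4% of all sites. Replicate 2 was the higher at 99 of them (17.7%) and replicate 1 at 61 (10.9%), against 15.7% and 14.7% of all sites. With the column names read the other way, 135 Igh sites (24.2%) were separated, against 26.3% of all sites. Under the first reading of the columns, replicates were separated in 5 of the 11 window stretches, against 34.2% of all stretches. Flanking stretches are not among these 11, though they count among all stretches. Of the Igh regions, 3 of 9 were separated under that reading, against 32.8% of all regions. Per Igh site, the mean difference was 14.5 points in technical and 14.1 points in biological pairs. Pearson's r between libraries ran from 0.641 to 0.758 across Igh sites, and from 0.468 to 0.663 across the 517 window sites; outside Igh the range was 0.761 to 0.801 across 7933 sites. These are descriptions, since neighbouring sites share molecules.

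Sites were closely spaced, about as closely as in the rest of the table. Another listed site lay within 10 bases for 528 Igh sites (94.5%) and for 93.6% of the other sites. The median step inside a region was 4 bases in both sets. A listed position directly followed another at 115 Igh sites (20.6%) and at 22.5% of the other sites. The longest run of directly following positions in Igh had 4 sites, from 114885667 to 114885670, with means of 44.1%, 52.3%, 49.2% and 58.1%. Directly following Igh sites differed by 5.23 points per library on average, against 14.5 points for consecutive sites 11 to 50 bases apart. Outside Igh the same differences were 3.82 and 9.89 points.

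Close Igh sites deviated together between libraries. Each level was taken as a deviation from the mean of its site over the 4 libraries, with library means removed. For 969 pairs of Igh sites 1 to 10 bases apart these deviations correlated at 0.698, and for 12798 pairs outside Igh at 0.763. At 11 to 50 bases the values were 0.413 over 3022 pairs in Igh and 0.513 over 38862 pairs elsewhere. They were 0.171 and 0.257 at 51 to 150 bases, and 0.00237 and 0.0406 at 151 to 300 bases. At 301 to 500 bases Igh, at 0.0762, lay above the other sites, at 0.0422. Pairs share sites, libraries and molecules, so no p-value is given.

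**Figure D4:**
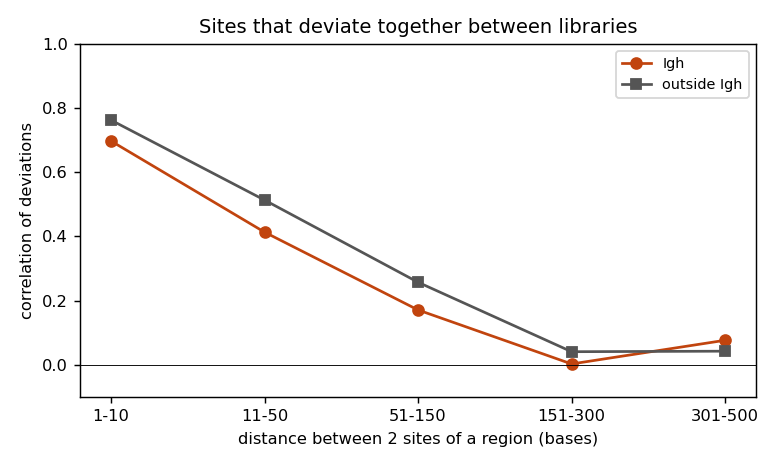
How strongly deviations of site pairs in a region correlated over the libraries (vertical axis), by their distance in bases (horizontal axis), in Igh and in all other sites. Igh falls from 0.698 at 1 to 10 bases to near 0 at 151 to 300 bases, and lies below the other sites in the first 4 bins and above them in the last (0.0762 against 0.0422).

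Several Igh stretches had the same spacing of sites as stretches on other chromosomes. Each Igh stretch of 10 or more sites (11 in the window and 2 in the flanks) was laid over each other stretch, in the same and in mirrored order, and the sites that coincided at the best single offset were counted. A match was called with at least 10 coinciding sites that made up at least 60% of the smaller stretch and at least 2 times the count at the next best offset. The rule was chosen after the data were seen. It gave a partner to 5 of the 13 Igh stretches, against 38.7% of all 222 stretches, so Igh stood near the share of the whole table. With 20 coinciding sites asked for, 3 Igh stretches and 24.3% of all stretches had a partner. With 3 times the next best offset, 1 Igh stretch did, and 2 of all 222 stretches (0.901%). These 2 are that Igh stretch and its own partner, so the shares are no comparison of Igh with the rest. Their 66 coinciding sites against 22 lie exactly at that limit. There were 10 pairs, with partners on 7 chromosomes, 6 of them in mirrored order and 0 between stretches of Igh. Of the partners, 2 lay outside gene spans.

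The longest Igh stretch had the clearest partner, in Anapc10, which encodes part of the anaphase-promoting complex, from 79755301 to 79755663 on chromosome 8. Of its 70 sites 66 (94.3%) coincided with Igh sites at a single offset, and the next best offset gave 22. Conversely, the Igh stretch had 72 sites in the shared span, and 66 of them had a counterpart. At these 66 sites Igh stood at 79.9%, 82.6%, 86.8% and 87.5% in the 4 libraries and Anapc10 at 87.2%, 81.7%, 87.3% and 90.8%. The means, 84.2% ± 4.17 and 86.8% ± 3.26 (SD, n = 2 for both), differed by less than either SD. Those SDs ignore that both loci were read in the same libraries. Within a library, Anapc10 stood above Igh except in technical replicate 2 of biological replicate 1 (81.7% against 82.6%). With rep1 and rep2 read as the biological replicates the SDs were 1.22 and 0.681, less than the difference. Site by site, the levels did not follow each other (r = -0.0734 across 66 sites, which share libraries), and no site pair had the same levels in all 4 libraries.

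**Figure D5:**
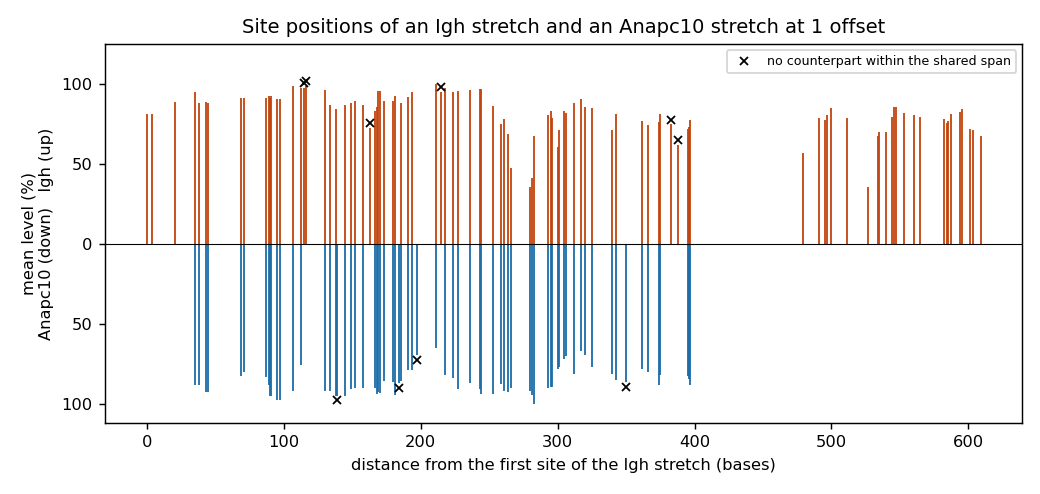
Mean level in percent of the sites of the longest Igh stretch (up) and of the Anapc10 stretch (down) over 4 Tet2-/- libraries, against distance in bases from the first site of the Igh stretch, with Anapc10 shifted by a single offset. Crosses mark sites without a counterpart in the shared span, 6 in Igh and 4 in Anapc10; the other 66 coincide.

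The other partners stood above, below or close to Igh in level. In Zfp984, a zinc finger gene, 32 of 33 sites from 147799937 to 147800091 on chromosome 4 coincided in mirrored order with sites of the Igh region of 68 sites, against 15 at the next best offset. Igh stood at 56.6% ± 1.71 and Zfp984 at 42.8% ± 2.94 at these 32 sites (SD, n = 2 for both). In Trim34a, a tripartite motif gene, 10 sites coincided with all 10 sites of the Igh stretch from 114887741 to 114887795, against 5 at the next best offset. Igh stood there at 74%, 48.6%, 53.6% and 63%, and Trim34a at 18.1%, 17.3%, 16.0% and 20%. The first Igh stretch, from 114885542 to 114885799 with 39 sites, matched 4 stretches. Mctp1, a calcium-binding membrane protein gene, shared 34 of these positions and stood at 76.4% against 58.9% in Igh. Dock10, a guanine nucleotide exchange factor gene, shared 28 and stood at 42.4% against 58.5%. Pde1c, a cyclic nucleotide phosphodiesterase gene, shared 19 and stood at 58.6% ± 8.32 against 57.5% ± 3.22, a gap within either SD (n = 2). A stretch outside genes on chromosome 6 shared 26 and stood at 40.3% against 62.0%. The remaining partners were in Zfp942, in Dgkd, a diacylglycerol kinase gene, and outside genes on chromosome 4. Igh was the higher in 7 of the 10 pairs, which reuse 5 Igh stretches and so are not independent. Correlations of levels across the coinciding sites ran from -0.507 to 0.764 with a median of 0.253.

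The sequence at these positions was not used here, so the base, the strand and the kind of element at a site are not given. Stretches with the same spacing may share reads, and whether reads were assigned to the right one of them was not tested. The levels of the 5 matching Igh stretches, which hold 263 sites, are uncertain for that reason. Partners were sought only among stretches of listed sites, so copies without listed sites could not be found. The search therefore cannot show that the remaining Igh sites are free of this uncertainty. Without the 5 matching stretches the mean level of Igh was 63.0% ± 0.700 (SD, n = 2), a value with the same limit.

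Among genes, Igh taken over all its 559 sites was close to Fut8 in level. Igh ranked 1 in number of sites among 110 genes, a number it was selected on, and 12 in mean level among the 53 genes with 10 or more sites. By number of sites, its regions of 235, 214 and 68 sites ranked only 4, 7 and 35 among all regions. The mean of Igh was 66.8%, 62.8%, 62.5% and 69.9% in the 4 libraries. The likeness of another gene was measured as the Euclidean distance between mean levels over the 4 libraries, among genes with 100 or more sites, of which there were 21 with Igh. Fut8, the core fucosyltransferase, lay at 2.72 points, with 67.5%, 63.5%, 62.7% and 67.4%. Pde1c lay at 6.99 points, the protein-coding gene 2010315B03Rik at 7.83, Angpt1, the ligand of the TIE2 receptor, at 11.4, and Plxdc2, a plexin-domain membrane protein gene, at 24.9. This likeness depends on the low flanking sites. The dense window alone, at 70.7%, 66.5%, 66.0% and 74.1%, was nearer to Pde1c than to Fut8 in each library. Pde1c stood at 70.3%, 67.4%, 66.2% and 71.1%. With a mean of 69.3% the window would also stand above Pde1c, at 68.7%, in the order of levels. In the order of levels, Angpt1 stood just above Igh at 67.9% ± 0.943 and Fut8 just below it at 65.3% ± 0.355 (SD, n = 2 for both). Fut8 lay within the SD of Igh and Angpt1 did not. Counting also the genes whose own SD reached Igh, 3 genes were not separated from it: Fut8, Sipa1l1 at 61.8% ± 4.82 and the long noncoding RNA C030034L19Rik at 60.03% ± 9.87. Under the other reading of the columns these were 4 genes: Fut8, Angpt1, Pign and Tbc1d5.

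The other antigen receptor loci had no listed site, which is the usual case: of 49997 annotated genes 110 (0.22%) had one, and of 21900 protein-coding genes 96 (0.438%). These shares count genes of every length and are no like measure for a locus such as Igh, which spans 2751187 bases. Of the 7 loci (Igh, Igk, Igl and the T cell receptor loci alpha, beta, gamma and delta), only Igh had any. The 7 genes of recombination and of the surrogate light chain, among them Rag1, Rag2 and Dntt, had 0 listed sites. So had 17 genes of immunoglobulin transcription, switching and processing, such as Pax5 and Ebf1, and the 13 genes of RNA cytosine methylation and oxidation, Tet2 included. None of 9 B cell and plasma cell markers (Cd79a and Ms4a1 among them) and none of 6 T cell markers had a site. Of 15 mast cell markers 3 did (Il1rl1, Cd200r3 and Cpa3), and of 3 basophil markers 1, which is again Cd200r3. At a share of 0.438% a list of these sizes would seldom hold a site, so the counts of 0 say nothing about the lists. The table holds no RNA levels, so the cell type could not be checked from expression, and a gene without a listed site may have lacked reads, levels of 10% or specificity for the group. The part of other cells in the Igh reads was not tested.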

How the data were processed

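RNA bisulfite libraries of Tet2-/- mast cells were analysed at sites in the Igh span. The authors' deposited table gives, per the file headers, a methylation rate per site and library as a fraction, which was multiplied to percent. It has no strand or read number, so depth and precision per site are unknown. The submitters' processing notes name mm10 and GRCm38. For aligner, caller, filters and conversion rate: not given in the sources used here. In the column names, K1 and K2 were taken as biological replicates, and rep1 and rep2 as technical ones. Technical replicates were averaged; SDs are over 2 biological replicates.

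Sites were joined into regions (up to 500 bases apart) and stretches (100 bases), and assigned to RefSeq spans of GRCm38 patch 6. All 77 entries of 8 gene lists were matched; 2 further list genes are not reported here. Named items follow a written rule: every region of 10 or more sites, the highest and lowest, annotated entries with a site, the 5 genes with 100 or more sites closest to Igh, and list genes with a site; other named stretches and partner genes were chosen after their values were seen. Members, lists and tests were chosen with earlier results of these data known. The genotype comparison was not run. The correlation and matching steps were run on simulated data. For matching these were a planted copy, a mirrored copy and independent positions, which give no rate of false matches for the Igh stretches. Python 3.11.15, numpy 2.4.6, pandas 2.3.3 and matplotlib 3.10.9 were used.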

Additional observations from a re-analysis of the deposited data

Results flagged for a closer look

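Of 20 values examined for a library far from the other 3 (the Igh mean, its regions, and stretches of 10 or more sites), 1 stood out, and chance alone gives about 1 in 20. At the single site 114858375, between Ighv1-34 and the pseudogene Ighv1-35, technical replicate 1 of biological replicate 1 read 40%, while the others lay between 11.8% and 15%. The gap to the nearest library made up 0.885 of the whole range. The same library was also the highest in the neighbouring region of 8 sites, at 24.3% against 11.3% to 14.8%. The reason for the difference was not tested.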

How the results depend on the processing

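The Igh mean of 65.5% was 57.5% without sites that have another within 10 bases (31 sites left, 29 of them in the dense window), 34.1% with each region counted once, 70.5% as a median over sites and 70.0% for sites at 20% or more in every library. It was 69.3% in the dense window, 18.1% without it, 61.9% without the stretch with the most sites and 63.0% without the stretches that share their spacing. These last 4 settings, and those for stretches and matches, were chosen after seeing the data. With a biological replicate left out it was 64.8% to 66.2%. The 559 sites became 104 with positions within 10 bases merged and 31 without close neighbours, and the 9 regions became 19 with sites joined up to 100 bases apart. Without close neighbours, the regions of 235, 68 and 214 sites stood at 65.7%, 45.8% and 57.5%. The correlation at 1 to 10 bases was 0.692 with Igh library means removed, 0.715 with library means kept, 0.704 for site means between 20% and 90%, and 0.659 to 0.710 with a replicate left out. With rep1 and rep2 taken as the biological replicates, technical pairs differed by 15.0 points and every mean was as before, but SDs changed, from 1.17 to 7.64 points for the stretch with the highest mean and from 8.32 to 0.774 for the one of 43 sites; separated sites went from 160 to 135. The 13 stretches of the window became 8 with joining up to 200 bases. Of the 5 matched stretches, 1 was left when 3 times the next best offset was asked for, the one matched to Anapc10, and 3 when 20 coinciding sites were asked for. The causes were not tested. Of 62 alternatives 39 stayed within the spread of replicates or 1.5 times the count. The correlation at 1 to 10 bases was given no such spread, so any change in it, however small, counted as outside. Reversal of a direction was not assessed. With 2 replicates, leaving out either moves a mean by less than the SD by construction. The other reading of the columns cannot move a mean at all. Such settings among the 39 are therefore no sign of stability. No paired analysis was possible between the genotypes, because only Tet2-/- levels were analysed. Loci read in the same libraries could be paired by library, and such values are given above for some of them, without a paired test. Read depth is not known, and its limits cannot be given.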
